A study of Synthetic plasmid and Mus musculus with 4 samples.

Results

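Fragments of at most 400 bp that contained a complete 300 bp target window were examined in a barcoded reporter library, to ask whether the window with little flanking sequence was enough for reporter activity. They were the constructs with 300 window bases, a length of 400 bp or less, a target of class R read in retina or of class B read in cortex, and at least 10 counts in each DNA library of that tissue. There were 693 among the 45670 constructs of the library: 350 R constructs over 235 targets in retina, of 450 before the count minimum, and 343 B constructs over 242 targets in cortex, of 398. They made up 9.3% of the 3763 whole-window R constructs and 9.01% of the 3806 whole-window B constructs with enough DNA counts. The reference was every longer construct, above 400 bp, that also held the complete window of the same target. It comprised 1774 constructs over 217 of the R targets and 1864 over 225 of the B targets. A further reference was the fragments of 400 bp or less that held only a portion of the window of the same targets, 625 R constructs over 171 targets and 626 B constructs over 184.

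Genomic fragments from C57BL/6J mice had been captured with RNA baits and cloned into plasmids, each with its own transcribed tag. In the retina experiment, CD-1 retinas received the library by electroporation ex vivo at postnatal day 0 and stayed in culture for 8 days; each of the 3 biological replicates pooled 5 retinas. In the cortex experiment, CD-1 mice aged 4 to 6 weeks received it in AAV by stereotactic injection, and GFP-positive cortex was dissected out 4 to 5 weeks later, 1 animal being a replicate and 3 being used. Every replicate gave an RNA and a DNA library, and there was no untreated group, so DNA of the same tissue and the constructs of the other target classes served as background. Target names begin with R, B, H or L, which from knowledge of the study stand for sites of open chromatin in retina, brain, heart and liver. The tables themselves hold only the letters. The retinas were explants of newborn tissue in culture and the cortex was adult tissue in the animal, so tissue, age and delivery cannot be told apart between the experiments. Cell types within the tissues were not separated, and the tables hold reporter tags only, so the tissue labels could not be checked against marker genes.

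Cis-regulatory elements are stretches of DNA, such as enhancers and promoters, to which transcription factors bind to raise or lower the transcription of a gene. They usually lie in open chromatin, and a DNase-hypersensitive site marks such a stretch. In a reporter assay a fragment is placed beside a minimal or basal transcription unit outside its own chromosome, and the abundance of the transcribed tag relative to the tag's DNA is read as its activity. A fragment that ends close to the edges of its window may lack binding sites in the flanks. A comparison of short and long fragments over the same complete window addresses this.

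The 15 letters that follow each name are the tags, 5′ to 3′ as deposited, of short constructs on which results below turn, because the tag is the only readout and identifies its fragment. They are shown in lower case with no part marked, and they are not genomic sequence. B195 carried 3 short constructs and its tags are shown together because the fragments differ only at their ends.
R64: accttcgccgtcatg
R438: aaggttagtggttgc
B645: tccagtcaatatttc
B813: acttcatatacttat
B195, tag 1: cacgttgaatcgagt
B195, tag 2: caaagagagaaagac
B195, tag 3: agtatctttttagca
The genomic sequence of the fragments was not used here. In build mm9, the R64 fragment of 396 bp lay at chr19:53864092-53864487 and extended 34 and 62 bases beyond the window. The shortest of these fragments, from B813, was 328 bp at chr9:108030608-108030935 and extended 18 and 10 bases. The B195 fragments started at 105752876, 105752859 and 105752888 and ended at 105753247, 105753254 and 105753265 on chromosome 13, so each contained the same 300 bases. Gene annotation of this build was not used here, so no gene, exon or intron is given for any window.

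In retina the RNA libraries had totals of 7025820 to 10411511 counts and the DNA libraries 6501061 to 12147398. In cortex these totals were 4000439 to 9674859 and 3999412 to 10769648. Constructs with enough DNA counts numbered 36005 in retina and 38826 in cortex. A short construct had a median of 592 DNA counts over the 3 retina libraries and 472 over the 3 cortex libraries, against 558 and 378.5 for long constructs of the same targets. Each construct carried a single tag, so the effect of a fragment and that of its tag cannot be told apart.

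Short constructs of class R spanned 307 to 400 bp with a median of 384, and the long ones 401 to 680 bp with a median of 495. Those of class B spanned 315 to 400 bp with a median of 381, against 401 to 688 bp with a median of 494. The total flank was therefore 7 to 100 bases in class R, with a median of 84, and 15 to 100 in class B, with a median of 81. For 340 R and 332 B constructs the window position could be read from the other constructs of the target. Their smaller flank had a median of 17 bases in both classes, and their larger flank a median of 60 bases in class R and 57 in class B. No short construct shared both ends with another. In class R, 161 targets had 1 short construct and 74 had more, up to 5. In class B these numbers were 179 and 63, up to 8. Short constructs of a target all contained its window, so they are overlapping measurements of nearly the same sequence and not replicates of a condition.

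In retina, short whole-window R constructs were called active at a share close to that of their longer counterparts and about 2 times that of short constructs lacking some of the window. Of 350, 65 (18.6%, exact 95% binomial interval 14.6 to 23.0) were called, against 2.8% of all 36005 constructs tested. A call meant more RNA than DNA after scaling of the libraries, past an adjusted p of 0.05 in edgeR's quasi-likelihood test. The 0 of this scale lies 3.43 log2 units below equal RNA and DNA shares in retina. Of the 1774 long constructs of the same targets, 281 (15.8%, 14.2 to 17.6) were called. Of the 625 short constructs with only a portion of the window, 56 (8.96%, 6.84 to 11.5) were called. The interval of the short whole-window constructs overlapped that of the long ones and lay above that of the short partial ones. The intervals cover counting error only, and overlapping constructs of a target do not vary independently. With every target given equal weight the shares were 17.6%, 15.6% and 9.17%, in the same order. No short whole-window construct of class B, H or L was called in retina.

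The RNA share of the short R constructs divided by their DNA share was 5.27, 5.28 and 5.64 in the 3 replicates, 5.40 ± 0.206 (SD, n = 3). They gave 5.33% ± 0.0889 (SD, n = 3) of the RNA counts from 0.988% ± 0.0215 (SD, n = 3) of the DNA counts. Short whole-window constructs of the other classes lay far below, with class B at 0.0952 ± 0.0256, class H at 0.0777 ± 0.00427 and class L at 0.0635 ± 0.0182 (SD, n = 3). The R values did not overlap with those of any other class.

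This RNA came from few constructs. The 65 called short constructs gave 92.3% of all RNA counts of short R constructs, and the top 10 gave 49.0%. Tags of 133 of the 350 (38.0%) were never seen in RNA, while those of 114 (32.6%) were seen in each of the 3 replicates. In a single replicate 45.7% ± 5.29 (SD, n = 3) of the short constructs had RNA, against 44.9% ± 3.17 of the long ones and 32.9% ± 4.03 of the short partial ones. All 65 called constructs had RNA in all 3 replicates, and 49 others with RNA in all 3 were not called.

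The most active short fragments came from scattered windows on several chromosomes. They belong to the 10 targets with the highest fitted log2 from short sums. The short value chose these targets, so a short value above the long one is partly set by that choice. For R64, at chr19:53864126-53864425, 1 short construct of 396 bp gave 23105, 20662 and 35420 RNA counts from 307, 226 and 306 DNA counts. Its ratio of RNA share to DNA share was 128, 86.1 and 122 in the 3 replicates, each above the 57.5, 37.1 and 66.6 of its 4 long constructs. The fitted log2 RNA/DNA was 10.22 (SE 0.37) from the short and 9.14 (SE 0.37) from the long constructs. On the fitted scale, equal RNA and DNA shares lie at 3.43 in retina, so these values exceed the log2 of the share ratios.

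R438, at chr5:51920706-51921005, had the highest fitted value, 10.56 (SE 0.83), from 1 construct of 400 bp with ratios of 37.7, 179 and 419. These rest on 237, 10 and 10 DNA counts, at the minimum in 2 replicates, and its 3 long constructs gave 42.2, 70.2 and 23.9. The groups overlapped. For R22, at chr5:44471926-44472225, the 1 short construct gave ratios of 253, 15.5 and 61.7 from 62, 103 and 48 DNA counts. Its 4 long constructs gave a narrower 59.5, 60.9 and 47.3, inside the range of the short one.

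R321 and R332 had several short constructs. The 3 short constructs of R321, at chr6:3925746-3926045, gave ratios of 43.7, 43.9 and 39.8, and its 6 long constructs 39.9, 64.4 and 54.1. The 2 short constructs of R332, at chr13:92998046-92998345, gave 58.9, 47.0 and 48.3, and its 3 long constructs 75.2, 54.9 and 75.5. In both targets the short and long values overlapped.

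R154, at chr19:42645866-42646165, gave 52.5, 71.0 and 65.5 from 2 short constructs and 114, 60.8 and 110 from 3 long ones. R288, at chr3:95895926-95896225, gave 54.1, 79.0 and 90.0 from 2 short constructs of 391 bp and 62.1, 41.0 and 56.1 from 10 long ones. The 2 short R288 constructs gave 87.0, 117 and 174, and 27.0, 21.2 and 31.3. In R154 and R288 the values of short and long sums overlapped. In R348, at chr2:94169566-94169865, 2 short constructs gave 70.1, 34.9 and 83.6, and 7 long constructs 29.6, 37.0 and 33.0. R899, at chr5:22718026-22718325, gave 48.9, 60.0 and 39.3 from 1 short construct, above the 27.9, 27.6 and 17.7 of 9 long ones in each replicate. R336, at chr2:12921706-12922005, gave 24.1, 58.6 and 36.6 from 2 short constructs and 24.0, 26.8 and 16.5 from 7 long ones. All 10 of these targets were called from their short sums by the rule that named them, and all were also called from their long sums. For none of them did the short and long sums differ past the threshold.

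Counts were then summed per target, and 217 R targets had both kinds of construct. From short sums 48 were called higher, where 5.23% of the short sums of all classes were, and from long sums 75 were, where 8.17% of all long sums were. The calls coincided in 47 targets, which is 97.9% of those called from short sums and 62.7% of those called from long sums. In 67 of the 75 targets called from long sums the fitted log2 from the short sum was above 0, and in 3 the short constructs had no RNA. That 0 lies 3.43 log2 units below equal shares, so a value above it need not mean an RNA share above the DNA share. The sides differ in their number of constructs, with a median of 1 short and 7 long per target. When equal numbers of short and long constructs were used per target, an alternative chosen after seeing the data, 47 targets were called from the longest and 38 from the shortest of the long ones. The short sums were called for 48 and 45 targets in those fits.

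Among the 47 targets called from both, the median fitted log2 was 7.20 from short and 6.93 from long sums. The median of short minus long was -0.16, with a range from -1.81 to 2.79. In 32 of the 47 the sums lay within 1 log2 unit and in 46 within 2, and the short sum was the higher in 20. These targets were kept because both sums were called, so a small difference among them is partly set by that choice. Over all 217 R targets the median fitted difference was -1.17. Across all 217 R targets the fitted values from short and long sums had a Pearson correlation of 0.731 and a Spearman correlation of 0.716. In the same libraries and scaling, the Pearson correlation was 0.076 over 213 B targets, -0.056 over 222 H targets and -0.033 over 266 L targets. All 48 short and 75 long sums called in retina were of class R. The other classes thus held no called targets, and their values cannot show how short and long sums of active targets relate.

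R315, named here after its values were seen, was the single target called from its short sum alone. Its 1 short construct gave ratios of 2.91, 3.80 and 2.22, and its 2 long constructs gave no RNA in replicates 1 and 2 and a ratio of 0.638 in replicate 3.

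Summed over all 217 targets, the log2 of the short over the long ratio was 0.17, 0.18 and 0.29 in the 3 replicates, 0.21 ± 0.06 (SD, n = 3), or 1.16-fold. The short sum was higher in 3 of 3 replicates, and the exact two-sided sign permutation test gave p = 0.25, the smallest that 3 replicates allow. The direction depended on the constructs included. Without the construct with most RNA on each side it was -0.11, with at least 2 constructs on each side -0.14, for short constructs of at most 350 bp -0.39, and with equal numbers of constructs -0.17 or -0.12.

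Tested per target, short and long sums differed for 6 of the 217 R targets (edgeR interaction test, adjusted p under 0.05). R818 alone was higher from its short constructs, where 0.109% of all targets were. At chr5:38613946-38614245, its 2 short constructs gave ratios of 21.9, 53.2 and 37.1 and its 5 long constructs 3.98, 4.14 and 7.93, a fitted difference of 2.81 log2 units (SE 0.56, adjusted p = 0.0454). The groups did not overlap.

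The other 5 were lower from short constructs, where 0.654% of all targets were. R189, at chr13:41339706-41340005, was the one with substantial RNA on both sides. Its 4 short constructs gave 8.92, 7.12 and 6.03 and its 19 long constructs 23.3, 21.4 and 33.3, a difference of -1.79 (SE 0.30, adjusted p = 0.0137). R134 had 2 short constructs, and R907 and R867 had 1 each. These gave no RNA count in any replicate, from 820, 1296 and 155 DNA counts in all. The 16, 22 and 5 long constructs of these targets gave ratios of 0.874 to 1.12, 0.328 to 1.02 and 1.09 to 1.31. With a floor of 3 counts over the 3 libraries, the short sums were at least 221-fold, 249-fold and 52-fold lower. The bounds of R907 and R867 rest on a single short tag each, and 38.0% of all short R constructs had no RNA. The 3 short constructs of R672 gave 1 RNA count from 2209 DNA counts, and its 32 long constructs 3409 from 21166. At an unadjusted p under 0.05, 40 of the 217 R targets (18.4%) differed, close to the 17.4% of all 918 targets. No target was called in either direction when any 1 of the 3 replicates was left out.

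The fitted difference per target leaned to lower short sums in every class. Its median was -1.17 over the R targets, with 30.9% of them above 0, and -4.36 over the B, -3.67 over the H and -2.28 over the L targets, with 27.0% to 38.3% above 0. A low median was therefore not particular to class R. Summed over targets, the log2 of short over long was 0.01 ± 0.58 in B, -0.15 ± 0.16 in H and -0.18 ± 0.11 in L (SD, n = 3). It was 0.21 ± 0.06 in R. These values were far smaller in size than the medians, so the medians do not give the change of a class as a whole.

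Among fragments of 400 bp or less, comparing those with the complete window to those with only a portion of it gave a larger difference in retina. The limit capped the length and did not match it between these 2 kinds. A whole-window fragment cannot be shorter than its window, whereas a partial-window fragment can. Window coverage and fragment length are therefore not separated in either tissue, and the part of length was not tested. Over the 171 targets with both kinds, short whole-window constructs had a ratio of 5.15 ± 0.122 and short partial-window constructs 2.63 ± 0.0601 (SD, n = 3). The log2 of whole over partial was 1.00, 0.90 and 1.00, 0.97 ± 0.06 (SD, n = 3), or 1.96-fold, in 3 of 3 replicates, with the smallest exact sign permutation p that 3 replicates allow, 0.25. The called shares were 17.3% of 271 whole-window and 8.96% of 625 partial-window constructs. In the other classes class B gave a log2 of 0.49 ± 0.19, class H 0.26 ± 0.32 and class L -0.61 ± 0.41 (SD, n = 3).

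By target, 4 of the 171 were higher with the complete window, where 0.552% of all targets were, and 3 were lower, where 0.414% were. R64 had 1 short partial construct of 366 bp with 149 window bases, which gave no RNA from 410 DNA counts. The short whole-window construct was at least 12900-fold higher against a floor of 3 counts over the group. R642 and R197 were likewise higher against partial constructs without RNA, at least 10700-fold with 63 and 185 window bases in the partial constructs and at least 689-fold with 181. These 3 rest on 1 or 2 partial constructs each.

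R348 had RNA on both sides. Its short whole-window constructs gave 70.1, 34.9 and 83.6 and its 4 short partial constructs, with 219 to 269 window bases, 16.5, 10.0 and 13.1, a difference of 2.24 (SE 0.39, adjusted p = 0.0234). The opposite held for R654 and R317. The whole-window construct of R654, 321 bp long, gave 5.23, 4.21 and 7.84, and its 1 partial construct, with 270 window bases, 32.2, 117 and 59.6. The whole-window construct of R317 gave 4.22, 1.28 and 1.71 and its 3 partial constructs, with 100 to 273 window bases, 24.2, 22.3 and 17.0. R134 gave no RNA from its 2 short whole-window constructs and 0.485, 0.380 and 0.482 from 10 partial ones, at least 105-fold lower.

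In cortex, few short whole-window B constructs were called active, at a share above those of both reference groups but with overlapping intervals. Of 343, 14 (4.08%, exact 95% binomial interval 2.25 to 6.75) were called higher, against 0.68% of all 38826 constructs tested. Of 1864 long constructs 46 (2.47%, 1.81 to 3.28) were called, and of 626 short partial constructs 22 (3.51%, 2.22 to 5.27). All 3 intervals overlapped, which does not show that the shares are equal. As in retina, they cover counting error only, and overlapping constructs of a target do not vary independently. With every target given equal weight the shares were 4.55%, 3.45% and 2.97%. Without replicate 3, 5 short constructs (1.46%) were called against 1.61% of the long ones. Among short constructs of the other classes, none of R or L and 1 of H, from target H647, were called.

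The ratio of RNA share to DNA share of the short B constructs was 1.56, 1.42 and 1.66, 1.55 ± 0.121 (SD, n = 3). In the same libraries the short R constructs had 0.750 ± 0.0232, the short H ones 0.894 ± 0.0368 and the short L ones 0.759 ± 0.0440 (SD, n = 3). The B values lay above all of these in each replicate. The RNA was more evenly spread than in retina, since the top 10 short constructs gave 34.9% of the short RNA counts, against 49.0% in retina. The 14 called constructs gave 39.9% of the short B RNA counts, and 31 of the 343 (9.04%) had no RNA. In a single replicate 70.0% ± 5.82 of short, 64.9% ± 5.87 of long and 67.9% ± 5.92 of short partial B constructs had RNA (SD, n = 3). Over targets with both kinds and weighted equally, these shares were 71.2% short and 64.4% long for B, and 63.0% and 58.9% for R, 63.9% and 59.8% for H, and 65.4% and 57.8% for L. Short constructs also had more DNA counts than long ones in every class, with medians of 475.5 and 378.5 in B and 451 and 368.5 in H, and the part of these counts in the detected shares was not tested. In the authors' deposited table, the median log2 RNA/DNA in the 3 replicates was -1.88, -2.99 and -1.14 for short, and -2.74, -3.64 and -2.02 for long B constructs.

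B645, B880, B813, B885, B902, B620, B195 and B737 were chosen by a high fitted log2 from short sums, as were B410 and B480. As in retina, a short value above the long one is partly set by that choice. B645, at chr5:112750026-112750325, had the highest short sum. Its 1 short construct of 384 bp gave 3009, 2519 and 4091 RNA counts from 24, 151 and 119 DNA counts, a ratio of 126, 34.1 and 28.8. Its 8 long constructs gave 27.2, 13.9 and 16.7, below the short one in every replicate. The fitted log2 was 6.01 (SE 0.49) and 4.63 (SE 0.25), on a scale where equal shares lie at 0.42 in cortex.

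B880, at chr17:73621306-73621605, gave 8.02, 55.3 and 27.4 from 1 short construct and 23.7, 25.5 and 25.7 from 6 long ones. B813, at chr9:108030626-108030925, gave 29.1, 10.3 and 15.7 from its 1 short construct of 328 bp and 8.20, 8.50 and 7.79 from 10 long ones. The B880 values overlapped, and those of B813 did not. B885, at chr9:108039906-108040205, gave 5.83, 11.0 and 17.4 from 1 short and 20.3, 13.6 and 20.4 from 9 long constructs. B902, at chr2:149699106-149699405, gave 10.7, 12.7 and 11.9 from 1 short and 16.5, 16.6 and 12.4 from 4 long constructs. B620, at chr12:44928306-44928605, was the least steady, with 32.6, 4.08 and 27.5 from 1 short and 26.1, 11.1 and 9.73 from 3 long constructs. The short and long values overlapped in these 3 targets.

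B195, at chr13:105752906-105753205, gave similar values from all 3 of its short fragments. The construct with tag 1 gave ratios of 14.9, 3.67 and 14.2, that with tag 2 gave 8.59, 4.74 and 11.1, and that with tag 3 gave 6.67, 6.58 and 4.96. Its 3 long constructs gave 8.27, 1.47 and 3.70. The short sum was called in edgeR's test (fitted log2 3.52, SE 0.42, adjusted p = 1.77e-14) and the long sum was not (2.26, adjusted p = 0.133). The values of short and long sums overlapped, however, and their difference did not pass the threshold. Fitted singly by edgeR, only the construct with tag 1 was called (adjusted p = 9.67e-08), and those with tags 2 and 3 were not (0.404 and 0.219). B737, at chr6:18589726-18590025, gave 11.8, 6.71 and 4.57 from 2 short and 6.36, 5.80 and 8.00 from 5 long constructs, which overlapped.

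Of 225 B targets with both kinds, 16 were called from short sums, where 1.94% of the short sums of all classes were, and 26 from long sums, where 2.87% of all long sums were. The calls coincided in 14 targets, which is 87.5% of the short calls and 53.8% of the long calls. In 21 of the 26 called from long sums the fitted log2 from the short sum was above 0. With equal numbers of constructs, 11 targets were called from the longest and 13 from the shortest of the long ones, and 16 from short sums in both fits. The 2 called from short sums alone were B195 and, named after its values were seen, B711, with 5.53, 3.68 and 8.04 from 2 short and 6.53, 8.52 and 3.89 from 2 long constructs.

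Among the 14 targets called from both, the median fitted log2 was 3.75 from short and 3.53 from long sums. Their median difference was 0.15, with a range from -0.86 to 2.27, and 10 lay within 1 log2 unit. As in retina, keeping only targets called from both sums partly sets such a small difference. Over all 225 B targets the median fitted difference was -0.54. Across the 225 B targets the fitted values had a Pearson correlation of 0.388 and a Spearman correlation of 0.351. In the same libraries the 232 R targets had a Pearson correlation of 0.013, the 233 H targets 0.051 and the 287 L targets -0.001. Of the 19 short and 28 long sums called in cortex, 16 and 26 were of class B. The other classes thus held few called targets to compare.

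Summed over the 225 targets, the log2 of short over long was 0.17, 0.04 and 0.20, 0.13 ± 0.08 (SD, n = 3), or 1.1-fold, in 3 of 3 replicates and again at the smallest exact sign permutation p that 3 replicates allow, 0.25. The other classes gave -0.05 ± 0.09 for R, 0.06 ± 0.03 for H and 0.01 ± 0.12 for L (SD, n = 3). The B direction was not stable either, at -0.35 without the construct with most RNA on each side, -0.11 with at least 2 constructs on each side and -0.33 with equal numbers, taking the shortest long constructs.

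By target, 3 of 225 were higher from short constructs, where 0.307% of all targets were, and 10 were lower, where 4.81% were. B410, at chr2:59439066-59439365, gave 8.99, 11.1 and 9.22 from 1 short construct and 2.12, 1.77 and 2.74 from 22 long ones, a difference of 2.15 (SE 0.37, adjusted p = 0.0130). B480, at chr6:87832866-87833165, gave 25.3, 14.8 and 12.2 from 1 short and 1.85, 4.33 and 4.94 from 2 long constructs, a difference of 2.27 (SE 0.50, adjusted p = 0.0303). In both the groups did not overlap. B329, at chr15:80453926-80454225, gave 1.79, 0.652 and 3.55 from 1 short construct and no RNA from 2 long ones with 325 DNA counts, so the short one was at least 209-fold higher against the floor of 3 counts over the group.

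The 10 lower targets were B151, B968, B448, B228, B245, B260, B247, B236, B130 and B667. All of them had a single short construct, which gave no RNA count in 9 and 1 count in B667. For those 9 the short sums were at least 20.6-fold (B130) to 217-fold (B151) lower, against the floor of 3 counts over the group. The 10 are 4.44% of the B targets, against 4.92% of the 752 targets of the other classes, and 22 of the 37 called there also had no RNA from short constructs. A lower short sum was thus about as frequent outside class B. The median fitted difference was -0.54 over B and -0.69 over the other classes. With 1 replicate left out, none of the 13 calls was made, whichever replicate it was. At an unadjusted p under 0.05, 37 of the 225 B targets (16.4%) differed, close to the 16.7% of all 977 targets.

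In cortex the summed activity was not higher with the complete window than without it. Over 184 targets, short whole-window constructs had a ratio of 1.45 ± 0.177 and short partial ones 1.69 ± 0.123 (SD, n = 3). The log2 of whole over partial was -0.14, -0.37 and -0.16, -0.22 ± 0.13 (SD, n = 3), at the smallest exact sign permutation p of 0.25, and it became 0.26 without the construct with most RNA on each side. The called shares were 4.69% of 277 and 3.51% of 626. Whether this comparison differed between retina and cortex was not tested.

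By target, 4 of 184 were higher with the complete window, where 0.893% of all targets were, and 1 was lower, where 1.79% were. B813 gave 29.1, 10.3 and 15.7 from the short whole-window construct and 0.261, 0.0319 and 0.107 from 2 partial constructs of 378 and 400 bp with 42 and 47 window bases, a difference of 7.11 (SE 1.03, adjusted p = 0.0099). B577 and B825 were at least 50.7-fold and 32.3-fold higher than partial constructs without RNA, which held 202 bases in B577 and 283 and 291 in B825. Those partial constructs had 272 and 281 DNA counts in all. The whole-window ratios were low, at 0.621, 1.16 and 0.437 in B577 and 0.501, 0.548 and 0.287 in B825. None of the short whole-window constructs of these targets was called active. B449 gave 3.34, 1.66 and 3.03 from 2 short whole-window constructs, and its 2 partial ones gave 4 RNA counts from 262 DNA counts. B968, whose whole-window construct had no RNA, was at least 78.4-fold lower than its 4 partial constructs.

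The called share was highest in the shortest length bin in retina and in the middle one of the 3 short bins in cortex. In retina the called share of whole-window R constructs was 21.4% of 42 at 301 to 350 bp, 18.6% of 86 at 351 to 375 bp and 18.0% of 222 at 376 to 400 bp. Above this it was 14.7% at 401 to 425 bp and 13.6% at 551 to 702 bp. The ratio of RNA share to DNA share was 2.93 ± 0.494, 7.05 ± 0.679 and 5.30 ± 0.219 in the 3 short bins and 5.00 ± 0.132 and 4.39 ± 0.154 in those 2 longer ones (SD, n = 3). The bins hold different targets. In cortex the called shares of the 3 short bins were 2.56% of 39, 5.71% of 105 and 3.52% of 199, and 2.79% and 2.10% in the same 2 longer bins. Just inside the 400 bp limit, at 391 to 400 bp, the ratio was 5.35 ± 0.319 in retina and 0.994 ± 0.336 in cortex, and just outside, at 401 to 410 bp, it was 6.62 ± 0.407 and 1.42 ± 0.188 (SD, n = 3).

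The called short constructs came from 17 chromosomes in retina and 9 in cortex, from both orientations and from all flank sizes. Their median length was 384 bp in retina and 376 bp in cortex, against 383 and 381 for those not called, and the shortest called were 307 and 328 bp. Fragments that reached 10 or fewer bases beyond one edge of the window were called in 22 of 114 cases (19.3%) in retina and 4 of 103 (3.88%) in cortex. Those with more on both sides were called in 41 of 226 (18.1%) and 10 of 229 (4.37%). Of 12 retina constructs that ended at an edge of the window, with 0 bases beyond it, 2 were called. By genome strand, 34 of 176 plus (19.3%) and 31 of 174 minus constructs (17.8%) were called in retina, and 5 of 178 (2.81%) and 9 of 165 (5.45%) in cortex.

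Short constructs of 1 target differed from each other by about as much as they differed from long ones. Of the 74 R targets with several short constructs, all were called in 12, some in 8 and none in 54. In class B none of 63 such targets had all called, 5 had some and 58 none. In the 30 R targets called from long sums with at least 2 constructs of each kind, the median log2 distance between constructs was 1.64 for short pairs, 1.26 for short against long and 1.11 for long pairs. In the 9 such B targets it was 1.07, 1.19 and 1.30. The distance from short to long constructs was thus below that between short pairs in class R and slightly above it in class B.

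B989, at chr6:24566766-24567065, had the most short constructs, 8 of 349 to 398 bp. Their sum gave 1.72, 0.219 and 0.379 and its 26 long constructs 0.860, 0.895 and 1.72. Single fragments ranged from ratios of 24.6, 0.0945 and 0 in the highest to 0.0113, 0 and 0 in the lowest, so the replicates of a single tag spread widely where RNA was scarce. In retina, R629, R669 and R834 had 5 short constructs each, and none of the 15 was called. The ratios from the sums were 0.556, 1.27 and 0.228 for R629, 0, 0.00565 and 0.198 for R669 and 0.076, 0 and 0.00135 for R834.

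The short constructs called in the tissue of their class were not called in the other tissue. Of the 65 R constructs called in retina, 64 had enough DNA counts in cortex and none was called there, where 0.68% of all constructs were. Their ratio was 20.2 ± 0.622 in retina and 0.798 ± 0.0497 in cortex (SD, n = 3), the latter close to the 0.754 ± 0.0321 of all short R constructs in cortex. The 14 B constructs called in cortex had a ratio of 12.8 ± 2.02 there and 0.360 ± 0.343 in retina (SD, n = 3). None of them was called in retina, where 2.8% of all constructs were. At such shares, sets of 64 and 14 constructs taken at random would often hold no call either. The SD of that retina value nearly equalled its mean, and all short B constructs had 0.0957 ± 0.0258 in retina (SD, n = 3). The values in the tissue of the call chose these constructs and are given as a description, and the difference between tissues was not tested here.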

How the data were processed

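Barcode counts were analysed for 3 RNA and 3 DNA libraries of retina and of cortex. The authors deposited raw read counts per barcode, per the file headers, and log2 RNA/DNA values, which were recomputed from the counts to within 5e-10 as log2 of the ratio of count fractions plus 0.001. The deposited construct table gives fragment coordinates, target and overlap, and lists a read count of at least 10 per barcode. Tools listed in the submitters' processing notes, without roles, are bedtools 2.22.1, SAMtools 0.1.19, Bowtie2 2.1.0 and FastQC, and the build listed is mm9. Coordinates are counted from 1. A target's window was placed where its constructs fixed a single 300 bp interval, in 2953 of 3483 targets. No molecular identifiers were used, and every interval or floor reflects counting error alone.

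Tests used edgeR 4.0.16 in R 4.3.3 (quasi-likelihood, robust, TMM scaling, Benjamini-Hochberg over all constructs or targets of all 4 classes, threshold 0.05) on constructs with at least 10 counts in each DNA library. RNA and DNA of a replicate come from the same tissue per the labels, so the replicate was a block. The pairing was checked on deviations from the group means, where RNA and DNA of the same replicate had correlations of -0.023 to 0.034 in retina and -0.059 to 0.036 in cortex; the pairing therefore comes from the labels alone. Targets were tested on summed counts, and short minus long as the interaction in 12 columns. Short and long columns of a library are not independent. TMM factors were 0.289 to 0.328 for RNA and 3.25 to 3.31 for DNA in retina. The per-pair log2 distances used a prior count of 2. Fits were also run on simulated counts with a fixed spread between replicates, unlike the wide spread of many single tags here. No result given here rests on that run.

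Named are, per tissue, the 10 targets with the highest fitted log2 from short sums, up to 10 in each direction of short minus long and up to 5 in each direction of whole minus partial, all under an adjusted p of 0.05 and of 1 sign in the 3 replicates, plus the targets with most short constructs. The members and lists were chosen with earlier results of these data known. Alternatives were DESeq2 1.42.0, limma 3.58.1, other scalings, count minimums, length limits and blocks, construct numbers, and each replicate left out. Python 3.11.15, numpy 2.4.6, scipy 1.17.1 and pandas 2.3.3 were used.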

Additional observations from a re-analysis of the deposited data

How the results depend on the processing

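Short constructs were called at a higher share than long ones under all 11 settings in retina and under all in cortex but the one without replicate 3. Called short constructs numbered 98 and 27 with DESeq2, 9 and 1 at 350 bp or less, and 52 to 55 and 5 to 13 with 1 replicate left out, in retina and cortex. Targets called from short sums in retina numbered 23 with at least 2 constructs on each side, 9 at 350 bp or less, 25 with total library size and 22 without the construct with most RNA on each side, and from long sums 34, 18, 44 and 31. Construct numbers matched to the short side, chosen after seeing the data, gave 47 and 38 long-called targets in retina and 11 and 13 in cortex. In cortex targets called from short sums numbered 9 with 50 or more DNA counts, 7 with at least 2 constructs on each side, 2 at 350 bp or less and 1 without the top construct, and from long sums 14, 9, 3 and 6, with 14 when long meant above 500 bp. With 1 replicate left out, short-called targets numbered 43 to 45 and 6 to 15, and long-called ones 68 to 73 and 19 to 24.

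Short minus long calls in retina, higher and lower, were 8 and 43 with DESeq2, 9 and 51 with the library as block, 0 and 0 with limma or matched construct numbers, 0 and 1 with long above 500 bp, 0 and 3 with no minimum count and 0 and 2 at 350 bp or less. None was higher with 50 or more DNA counts, with total library size or without the top construct, and without the replicate block 16 were lower. In cortex they were 9 and 25 with DESeq2, 0 and 0 with the library as block, limma or at least 2 constructs on each side, 0 and 3 at 350 bp or less and 0 and 1 without the top construct. Lower calls in cortex were 2 with 50 or more DNA counts, 4 with long above 500 bp, and 2 and 0 with matched numbers of the longest and shortest. With 1 replicate left out they were 0 to 0 in both directions and tissues.

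Whole minus partial calls in retina were 28 and 20 with DESeq2, 1 and 1 with 50 or more DNA counts or at least 2 constructs on each side, 1 and 0 at 350 bp or less and 0 and 0 without the top construct, with 0 lower under limma, and 1 to 3 higher and 0 to 1 lower with 1 replicate left out. In cortex they were 11 and 15 with DESeq2, 8 and 8 without the replicate block, 0 and 0 with limma, at 350 bp or less or with 1 replicate left out (0 to 0), 2 and 0 with at least 2 constructs on each side, 2 higher without the top construct and 0 lower with 50 or more DNA counts. Without the replicate block, called long constructs numbered 432 in place of 281 in retina and 79 in place of 46 in cortex, and called short ones 90 and 20.

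The summed log2 of short over long in retina was 0.07 with 50 or more DNA counts, 0.30 with no minimum, -0.39 at 350 bp or less, 0.06 with long above 500 bp, -0.14 with at least 2 constructs on each side, -0.11 without the top construct, -0.17 and -0.12 with matched numbers, and 0.18 to 0.23 with 1 replicate left out. In cortex it was 0.00 with no minimum, 0.05 with long above 500 bp, -0.11 with at least 2 constructs on each side, -0.35 without the top construct, -0.33 with matched numbers of the shortest, and 0.10 to 0.18. Whole over partial, with alternatives added after seeing the data, was 0.87 with 50 or more DNA counts, 1.05 with no minimum, 0.71 with at least 2 constructs, 1.46 without the top construct and 0.95 to 1.00 with 1 replicate left out in retina, and in the same order 0.04, -0.41, 0.23, 0.26 and -0.26 to -0.15 in cortex, with -0.56 at 350 bp or less.

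Named targets kept their direction in 168 of 170 and 134 of 136 values for short sums, in 90 of 91 and 174 of 174 for short minus long, and in 72 of 73 and 51 of 51 for whole minus partial, in retina and cortex. The exceptions were R867 at 1.90 with matched numbers of the longest, R317 at 1.09 with limma, R629 at -1.76 at 350 bp or less and -0.87 with total library size, and B989 at 0.00 without the replicate block and between -1.37 and 0.12 with 1 replicate left out. Why these values moved was not tested. Among short minus long values, 49 of 91 in retina and 92 of 174 in cortex no longer passed the threshold. A median of 1 short construct per target limits what any single target can show.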
